A study of Mus musculus with 30 samples.

Results

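Oxidative phosphorylation is the chain of mitochondrial enzymes that turns the electrons of NADH and succinate into ATP. Complex I takes electrons from NADH and complex II takes them from succinate, complex III passes them from ubiquinol to cytochrome c, complex IV hands them to oxygen, and complex V uses the resulting proton gradient to make ATP. Complexes I, III, IV and V are built from proteins of both the nuclear and the mitochondrial genome, whereas complex II is encoded in the nucleus alone. In the testis, several complex IV subunits also have tissue isoforms that replace a common subunit.

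The genes of these subunits were taken by symbol from the protein-coding genes of the deposited tables: those starting with Ndufa, Ndufb, Ndufc, Ndufs, Ndufv, Uqcr, Cox4i, Cox5, Cox6, Cox7, Cox8, Atp5, mt-Nd, mt-Co, mt-Cy or mt-Atp, and Sdha to Sdhd. The Ndufaf assembly factors were left out. The rule found 98 of 21734 protein-coding genes, or of 49315 genes in all, and 11 rows of other gene types that match the symbols were left out. The nucleus encodes 85 of them and mitochondrial DNA (mtDNA) 13. Complex I holds 43 members (36 nuclear, 7 mtDNA), complex II 4, complex III 9 (8 and 1), complex IV 23 (20 and 3) and complex V 19 (17 and 2). Ndufa4 and its paralog Ndufa4l2 were placed in complex IV, where the Ndufa4 protein is known to sit, and Atp5s is a coupling factor rather than a core subunit. Cyc1 (cytochrome c1), Usmg5 and Atpif1 (the inhibitor of complex V) fall outside the symbol rule. None of these 3 was called in a comparison, with Cyc1 at a log2 fold change of 0.12 ± 0.05 (SE) in both ATRA (adjusted p = 0.0535) and MEHP + ATRA (adjusted p = 0.055), edgeR's quasi-likelihood test.

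RNA was measured in 30 libraries of fetal testis from C57BL/6 mice. The testes were removed on gestational day 14 without the mesonephros and cultured for 24 h on inserts, and every library, controls included, received the same dilution of dimethyl sulfoxide (DMSO). The 4 treatments were DMSO vehicle (n = 15), 100 µM mono-(2-ethylhexyl) phthalate (MEHP, n = 6), 1 µM all-trans retinoic acid (ATRA, n = 5), and both compounds at those doses (MEHP + ATRA, n = 4). MEHP is a monoester that the body makes from a common phthalate plasticizer. ATRA, a vitamin A derivative, acts through retinoic acid receptors in the nucleus. The comparisons ask what each compound, alone and together, did to the transcripts. Sample titles carry a second number, whose meaning the labels do not state, that lies between 416 and 465 (lower range) or between 525 and 599 (upper range): all MEHP libraries lie in the upper range, all ATRA and MEHP + ATRA libraries in the lower, and vehicle in both (9 lower, 6 upper). Each treatment was set against vehicle of its own range through a range term in the fit, and the comparisons with vehicle share vehicle libraries.

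Libraries held 17551454 to 29306917 counts. Markers of Sertoli cells summed to 2180 to 4150 CPM (counts scaled to a common library total) per library and those of the mesonephros to 31 to 61.4 CPM. Subunit genes took 2.07% ± 0.126 of all counts (SD, n = 30), of which the nuclear members took 0.933% and the mtDNA members 1.14%. The mtDNA share came almost wholly from 7 genes, since 6 held under 100 mean counts. The vehicle library of replicate 6, in the upper range, stood apart by its mtDNA sum, 14248 CPM against 10264 to 11371 CPM in the other vehicle libraries of that range, and ATRA replicate 5 had 9965 CPM against 11676 to 12275 CPM.

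The mtDNA genes fell into those that could be measured in these tables and those that could not. Mean counts per library, in the order of the genome, were 34518 for mt-Nd1 (position 2751 to 3707), 15251 for mt-Nd2 (3914 to 4951) and 99815 for mt-Co1 (5328 to 6872). The next 6 genes were nearly empty: 50.7 counts for mt-Co2 (7013 to 7696), 10.9 for mt-Atp8 (7766 to 7969), 30 for mt-Atp6 (7927 to 8607), 59.1 for mt-Co3 (8607 to 9390), 5.07 for mt-Nd3 (9459 to 9806) and 8.13 for mt-Nd4l (9877 to 10173). Counts were high again from mt-Nd4 on, with 14749 for mt-Nd4 (10167 to 11544), 26587 for mt-Nd5 (11742 to 13565), 5391 for mt-Nd6 (13552 to 14070, minus strand) and 41148 for mt-Cytb (14145 to 15288). These genes encode the subunits of complexes I, III, IV and V that are made inside the mitochondrion, and mtDNA is transcribed as long precursors that are cut into the single messages.

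The nearly empty stretch matches a copy of mtDNA in the nuclear genome. On chr1:24611535-24616197 (minus strand) the annotation holds 7 genes that copy mt-Co1 to mt-Nd4. Gm28661 equals mt-Co2 in all 681 aligned bases, Gm10925 equals mt-Atp6 in 678, Gm28437 equals mt-Co3 in 783, and Gm10222 equals mt-Nd4l in 294. Gm28438 differs from mt-Nd3 in 1 of 345 bases. Of the 50-base stretches of mt-Co2, mt-Atp6, mt-Co3, mt-Nd3 and mt-Nd4l, 98 to 100% also occur in the annotated transcript of another gene, against 0% for mt-Nd1, mt-Nd6 and mt-Cytb. The exception is mt-Atp8, with 10.9 counts and 0% shared. Most of its place in the copy lies in the 233 bases between Gm10925 and Gm28661, where no gene is annotated. The 21.1% of its bases that overlap mt-Atp6 form a stretch shorter than 50 bases. Only annotated transcripts were searched, so 0% does not show that its sequence is absent from the copy. The start of mt-Co2 and of mt-Nd3 is shown with its nuclear copy (GENCODE M21 transcripts on GRCm38, 90 bases each). Apart from the base in capitals, a read from either place would carry the same letters. Capitals mark the only base that differs, T3C, counted from 1 at the first base of mt-Nd3.
mt-Co2: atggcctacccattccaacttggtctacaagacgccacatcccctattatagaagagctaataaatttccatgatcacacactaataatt
Gm28661: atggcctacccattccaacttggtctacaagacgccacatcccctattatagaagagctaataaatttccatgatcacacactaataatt
mt-Nd3: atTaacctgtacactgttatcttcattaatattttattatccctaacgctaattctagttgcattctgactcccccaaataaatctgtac
Gm28438: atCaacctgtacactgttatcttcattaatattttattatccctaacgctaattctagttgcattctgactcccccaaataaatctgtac
The copies themselves held few counts: 57.9 for Gm28661, 49 for Gm10925, 112 for Gm28437, 251 for Gm28438 and 27.7 for Gm10222. None of the 7 copies was called in a comparison, with adjusted p of 0.398 or more in edgeR's quasi-likelihood test. How the authors' counting treated reads that match 2 places is not given in the sources used here, and its part in the low counts was not tested. For mt-Co1 and mt-Nd4, 51.1% and 62.2% of 50-base stretches are shared, and counts were high. Reads of the shared parts cannot be told apart from reads of the other genes that hold them. These are Gm29216, Gm13340 and Gm11512 for mt-Co1 and Gm28439 for mt-Nd4. Stretches of mt-Co2 and of mt-Atp6 also occur in a gene other than the chr1 copy named above.

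**Figure D1:**
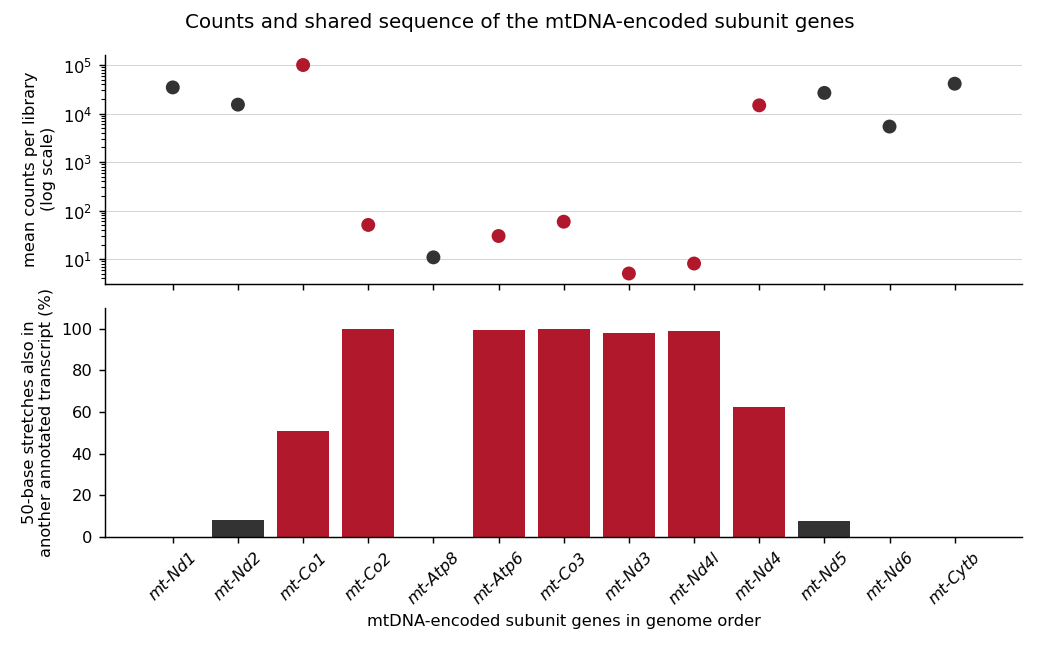
Mean counts per library (log scale, n = 30, upper panel) and the percentage of 50-base stretches that also occur in the annotated transcript of another gene (lower panel) for the 13 mtDNA-encoded subunit genes in genome order. Genes over 50% are in red. The 6 genes from mt-Co2 to mt-Nd4l lie under 100 mean counts. Of these, 5 share 98 to 100% of their 50-base stretches, and mt-Atp8 shares none with an annotated transcript.

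Reads of some nuclear members are also ambiguous, to a lesser degree. No nuclear member shared over 50% of its 50-base stretches with another gene's transcript, 19 of 85 shared over 10%, and 35 shared none. Atp5o and Atp5g2 had the highest shares, at 41.6% and 38.3%. On the opposite strand another gene covered over 10% of the exonic bases of 10 members, with Ndufb6 (39%, Smim27) and Ndufa13 (30%, Tssk6) among them. The strand setting of the counting is not given in the sources used here, so reads of such pairs cannot be told apart.

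Levels between genes were compared in TPM, a length-scaled share of transcripts computed from the counts and the gene lengths in the tables. An mtDNA message was the highest member, mt-Co1 at 10098 TPM, followed by mt-Nd1 at 5644 TPM and mt-Cytb at 5613 TPM. Among nuclear members, the highest were Cox6a1 (1055 TPM) and Cox8a (832 TPM), which are small structural subunits of complex IV, and the catalytic subunits of complex V, Atp5b (778 TPM) and Atp5a1 (762 TPM). In complex II the flavoprotein Sdha stood at 314 TPM, the membrane anchor Sdhd at 223 TPM, the iron-sulfur protein Sdhb at 144 TPM and the anchor Sdhc at 109 TPM. Nuclear complex I members spanned 26 TPM (Ndufb2) to 433 TPM (Ndufa6), and complex III members 140 TPM (Uqcrc2) to 463 TPM (Uqcr10). Low members were tissue isoforms: 6 nuclear genes, all of complex IV, had under 100 mean counts, namely Cox4i2, Cox6a2, Cox7b2, Cox8b, Cox8c and Ndufa4l2. Lengths count every annotated exon, so a gene with long, rarely used exons reads low on this scale.

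Subunit transcripts varied little between untreated cultures. The SD of log2 CPM over the vehicle libraries, within ranges, had a median of 0.11 over the 84 members with at least 20 CPM, beside 0.12 over all 8985 genes at that level. The 7 measurable mtDNA genes spread more, with a median SD of 0.17.

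Summed over the 85 nuclear members, transcript levels differed little between groups. The sum was 9362 ± 281 CPM in vehicle of the lower range (SD, n = 9), 9320 ± 180 with ATRA (n = 5) and 9343 ± 437 with MEHP + ATRA (n = 4). In the upper range it was 9395 ± 458 in vehicle (n = 6) and 9282 ± 374 with MEHP (n = 6). All groups overlapped, and the differences were smaller than the spread between libraries of 1 group.

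mtDNA-encoded transcripts summed to somewhat higher means with treatment, again with overlap. Vehicle had 11018 ± 705 CPM in the lower range and 11308 ± 1500 CPM in the upper, MEHP 11622 ± 658, ATRA 11493 ± 887 and MEHP + ATRA 12036 ± 1678. The 4 MEHP + ATRA libraries ran from 9870 to 13675 CPM, which is wider than the 9 vehicle libraries of their range (9976 to 12014 CPM). The ATRA library at 9965 CPM lay below all of these vehicle libraries. The largest single part of these sums was mt-Co1, at a mean of 4796 CPM over the 30 libraries. With MEHP, 3 of the 7 mtDNA genes with at least 100 counts had a positive fitted log2 fold change (median -0.03). A sum over members is given as a description, with no test.

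**Figure D2:**
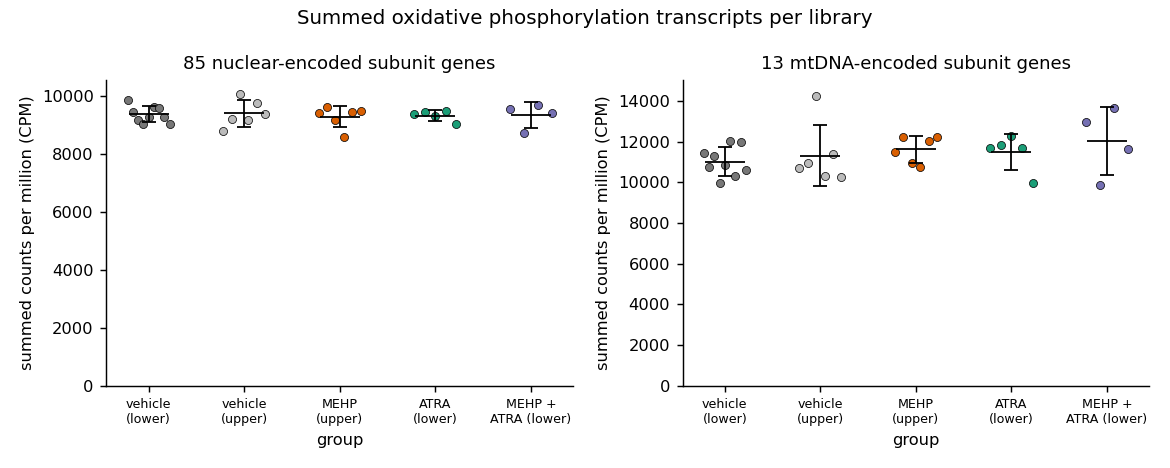
Summed CPM of the 85 nuclear-encoded (left) and 13 mtDNA-encoded (right) subunit genes in each library, by group, with the mean and SD as bars and 1 point per library. Lower and upper name the range of the second title number. Nuclear sums lie between 8575 and 10074 CPM in every group, and the vehicle library at 14248 CPM is the highest mtDNA sum.

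By complex, the nuclear members moved just as little. Complex I nuclear members summed to 2571 ± 95.2 CPM in lower-range vehicle, 2602 ± 41.8 with ATRA and 2627 ± 105 with MEHP + ATRA. Complex II had 665 ± 19.3, 675 ± 16.9 and 671 ± 14.7 CPM in the same order, and complex III nuclear members 782 ± 22.9, 784 ± 25.6 and 784 ± 41.9 CPM. For MEHP against upper-range vehicle the sums were 2568 ± 102 against 2578 ± 137 CPM in complex I, 659 ± 32.3 against 667 ± 42 CPM in complex II, and 770 ± 24.6 against 785 ± 28.8 CPM in complex III. Nuclear members of complex IV had 1732 ± 68.7 CPM in lower-range vehicle, 1699 ± 25.3 with ATRA and 1695 ± 91.5 with MEHP + ATRA, and 1700 ± 31.6 with MEHP against 1711 ± 63.7 in its vehicle. Complex V, the most abundant by counts, had 3612 ± 100, 3561 ± 92.6 and 3567 ± 202 CPM, and 3587 ± 192 with MEHP against 3655 ± 223 CPM. Each difference lay within 1 SD of the vehicle libraries.

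Few single genes were called. In edgeR's quasi-likelihood test with Benjamini-Hochberg adjustment over all 19323 genes tested (threshold 0.05), 97 of the 98 members were tested, since mt-Nd3 had too few counts. MEHP called 2 of 97 members (1 up, 1 down), against a background of 4.72% of all genes (2.88% up, 1.84% down). ATRA also called 2 of 97, both up, against 18.1% of all genes (9.06% up, 9.03% down), and 5 without vehicle replicate 13 or 6 without ATRA replicate 5. MEHP + ATRA called 7 of 97 (6 up, 1 down), against 29% of all genes (14.3% up, 14.7% down). Against ATRA alone, MEHP + ATRA called 1 of 97, up, beside 3% of all genes (1.62% up, 1.38% down). The members' shares were 2.06%, 2.06%, 7.22% and 1.03% in the order given, each below the share of all genes.

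The interaction of MEHP and ATRA called 0 of 97 members, as it called only 0.0311% of all genes. For 1 member edgeR gave an unadjusted p under 0.05, and DESeq2's Wald test and limma-voom called 0 too. Between the upper and lower range of vehicle, 0 of 97 members were called (8 at an unadjusted p under 0.05 in edgeR, 0 by DESeq2 and by limma-voom), beside 0.373% of all genes.

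The intervals show how small a change the data allow for most members. Of the 79 nuclear members with at least 100 mean counts, the 95% interval of the log2 fold change lay within ±0.25 for 74 under MEHP, 70 under ATRA and 58 under MEHP + ATRA. It lay within ±0.5 for 78 in each comparison, and the exception in each was Cox7a1. For the 4 Sdh genes of complex II all intervals lay within ±0.25 in these comparisons, with fold changes from -0.11 to 0.06 on the log2 scale. Of the 7 mtDNA genes with at least 100 counts, 4, 4 and 2 lay within ±0.25, and all 7 within ±0.5. The median log2 fold change of the nuclear members was -0.02 for MEHP, -0.01 for ATRA and 0.01 for the co-exposure, beside -0.01, -0.00 and -0.01 over all genes.

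No mtDNA member was called in the edgeR fit to all 30 libraries. Their median log2 fold change was -0.02 under MEHP, 0.08 under ATRA and 0.16 under MEHP + ATRA, or -0.03, 0.06 and 0.12 over the 7 with at least 100 counts. With ATRA 12 of 12 tested had a positive value and with MEHP + ATRA 11 of 12. Of the 7 with at least 100 counts, 7 and 6 were positive. The genes share precursor transcripts and libraries, however, and are not independent. The nearest to a call was mt-Co1, the catalytic subunit of complex IV, at 5751, 4429, 6031 and 4811 CPM with MEHP + ATRA against 4214 to 5301 CPM in the 9 vehicle libraries (median 4554). Of the 4 values, 2 lay within the vehicle range. Its log2 fold change was 0.18 ± 0.08 (SE), adjusted p = 0.0886. limma-voom with sample weights called mt-Nd1 (0.21), mt-Co1 (0.21) and mt-Nd2 (0.23), and without vehicle replicate 6 edgeR called mt-Co1 (0.19). That library is of the upper range and outside the groups compared, but shares the scaling and the estimate of the spread.

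**Figure D3:**
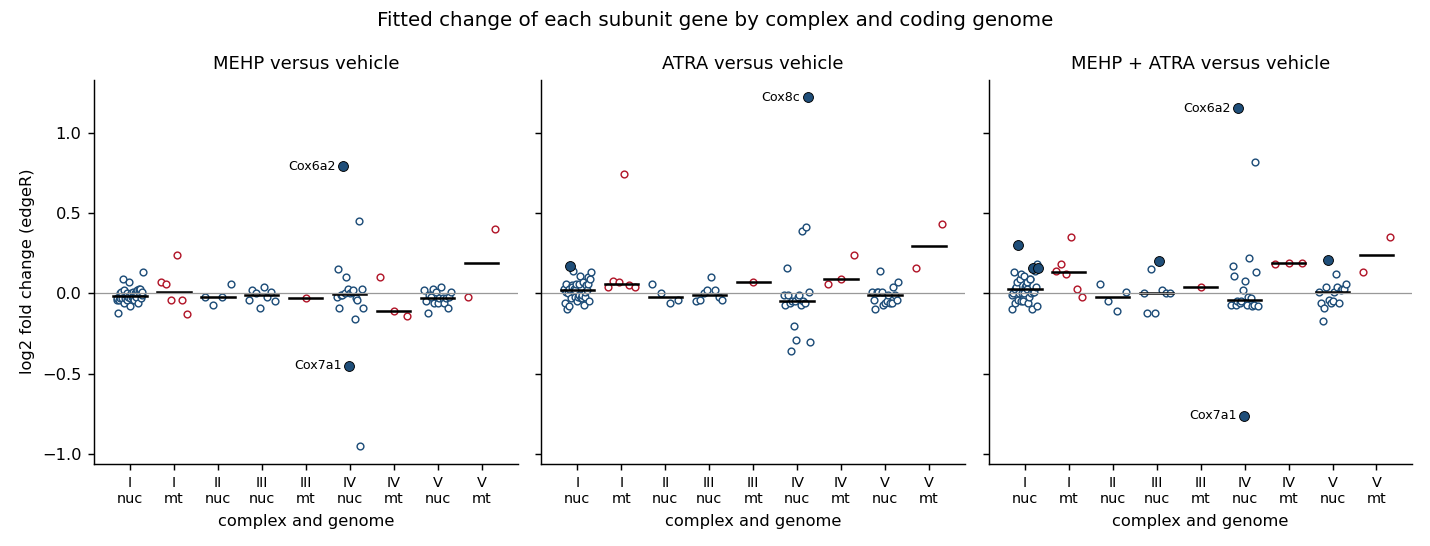
Fitted log2 fold change of each of the 97 tested members against vehicle of the same range, by complex (I to V) and genome (nuc, nuclear, blue; mt, mtDNA, red), for MEHP, ATRA and MEHP + ATRA. Lines are medians and filled points passed an adjusted p of 0.05 in edgeR. Most nuclear points lie near 0, and the filled points far from 0 are Cox6a2, Cox7a1 and Cox8c of complex IV.

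Cox6a2 encodes the heart and skeletal muscle form of complex IV subunit 6A (chr7:128205435-128206387, minus strand, as in the tables). It rose with MEHP + ATRA. Its level was 5.78, 3.45, 6.62 and 4.76 CPM in these libraries, 1.93, 2.14, 1.57, 2 and 1.37 CPM with ATRA, and 1.42 to 3.57 CPM in the 9 lower-range vehicle libraries (median 2.27). Of the 4 co-exposed libraries, 3 lay above every lower-range vehicle library, and all 4 lay above every ATRA library. The log2 fold change was 1.15 ± 0.22 (SE; 2.22-fold) against vehicle, adjusted p = 9.52e-05, and 1.51 ± 0.25 (2.86-fold) against ATRA, adjusted p = 0.000381, in edgeR. Both calls held in every alternative fit run and with each library left out in turn.

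With MEHP alone Cox6a2 also rose. The 6 MEHP libraries had 2.01 to 4.45 CPM (median 3.08) and the 6 upper-range vehicle libraries 1.05 to 2.58 CPM (median 1.9), so the groups overlapped. The log2 fold change was 0.79 ± 0.23 (1.73-fold), adjusted p = 0.0376 in edgeR. With ATRA alone it was -0.36 ± 0.22, adjusted p = 0.315. The interaction for Cox6a2 was 0.72 ± 0.34 (p = 0.0428, adjusted p = 1 in edgeR), so the response to MEHP was not shown to differ with ATRA. All of this rests on 23 to 147 counts per library, and 10.3% of its exonic bases lie opposite Itgad.

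Cox7a1, the muscle form of complex IV subunit 7A (chr7:30184144-30186078, plus strand), fell with MEHP + ATRA. The 4 libraries had 5.7, 4.84, 5.45 and 5.78 CPM, and the 9 vehicle libraries 7.42 to 11.7 CPM (median 9.08). The groups did not overlap, and the log2 fold change was -0.76 ± 0.13 (0.59-fold), adjusted p = 1.77e-05 in edgeR. This call too held in every alternative and with each library left out. With MEHP it fell as well, at 4.42 to 7.42 CPM (median 5.21) against 5.62 to 8.89 CPM in vehicle (median 7.73). These groups overlapped, and the log2 fold change was -0.45 ± 0.12 (0.73-fold), adjusted p = 0.0223. With ATRA it stood at 8.77, 7.37, 7.8, 6.87 and 6.79 CPM, a log2 fold change of -0.29 ± 0.11 that was not called (adjusted p = 0.0754). Against ATRA alone, MEHP + ATRA gave -0.47 ± 0.14 (adjusted p = 0.0576 in edgeR), with no overlap between the 2 groups. It passed the threshold in 5 alternatives and without MEHP replicate 1 or 5 or vehicle replicate 6 or 12, which gave 2 called members in this comparison. None of these left-out libraries belongs to the 2 groups compared, but they share the scaling and the estimate of the spread.

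Both MEHP calls were less firm than those of the co-exposure. A fit to the upper-range libraries alone ended them, with an adjusted p of 0.133 for Cox6a2 and 0.155 for Cox7a1 in edgeR. The call of Cox6a2 was also lost without vehicle replicate 4 (0.109), 6 (0.0634), 10 (0.0701) or 14 (0.0587), or MEHP replicate 3 (0.108), 4 (0.063) or 6 (0.114). That of Cox7a1 was lost without vehicle replicate 4 (0.0588), 10 (0.0515) or 11 (0.062), or MEHP replicate 1 (0.0783), 4 (0.0513) or 6 (0.0598), adjusted p in edgeR throughout. As a result 0 members were called with MEHP without vehicle replicate 4 or 10 or MEHP replicate 4 or 6, and 1 without vehicle replicate 6, 11 or 14 or MEHP replicate 1 or 3.

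Cox8c, known as a testis form of complex IV subunit 8 (chr12:102899306-102900534, plus strand), rose with ATRA. The 5 ATRA libraries had 2.13, 1.61, 1.35, 1.95 and 2.11 CPM and the 9 lower-range vehicle libraries 0.485 to 1.22 CPM (median 0.755), without overlap. The log2 fold change was 1.22 ± 0.29 (2.33-fold), adjusted p = 0.00267 in edgeR, and the call held in all alternatives and with each library left out. With MEHP + ATRA the values were 0.734, 1.68, 1.67 and 1.47 CPM, with 3 of 4 above every lower-range vehicle library. There the log2 fold change was 0.82 ± 0.32 and just missed the threshold (adjusted p = 0.0518 in edgeR), while DESeq2 and limma-voom called it (0.83 and 0.88). With MEHP alone it was -0.95 ± 0.37 (adjusted p = 0.177), at 0.111 to 0.824 CPM (median 0.392) against 0.452 to 1.9 CPM in vehicle (median 0.536). These levels rest on 2 to 52 counts per library.

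The common paralogs of these isoforms were not called. Cox6a1, the general form of subunit 6A, had log2 fold changes of -0.01 under MEHP, -0.06 under ATRA and -0.05 under MEHP + ATRA, each ± 0.05 (SE). Cox7a2, the general form of subunit 7A, had 0.00, -0.02 and 0.08, each ± 0.06. For Cox8a the values were -0.04 ± 0.06, -0.06 ± 0.06 and -0.08 ± 0.07. Adjusted p was 0.328 or more for these 9 values in edgeR.

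Since the common forms dominated, the isoform changes moved only small parts of each family. Cox6a2 made up 1.03% ± 0.293 of Cox6a transcripts, in TPM, in lower-range vehicle (SD, n = 9) and 2.33% ± 0.497 with MEHP + ATRA (n = 4). Cox7a1 made up 8.33% ± 0.719 of Cox7a1, Cox7a2 and Cox7a2l together in vehicle and 5.18% ± 0.408 with MEHP + ATRA. Cox8c went from 0.612% ± 0.185 of Cox8 transcripts in vehicle to 1.47% ± 0.242 with ATRA (n = 5). Over all 30 libraries Cox6a1, Cox8a and Cox4i1 took 98.8%, 98.8% and 99% of their families, and Cox7a2l took 60.5% of its own.

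Shares of other isoforms varied between libraries too. Cox6b2, a testis form of subunit 6B, held 15.1% of Cox6b transcripts and Cox6b1 84.9%. With ATRA the log2 fold change of Cox6b2 was -0.20 ± 0.07, not called in edgeR (adjusted p = 0.0562) but called by DESeq2 (-0.20) and limma-voom (-0.22). Cox7b2 held 5.34% of Cox7b transcripts over all libraries, from 1.34% to 11.2%, with group means from 3.8% ± 1.7 under MEHP (SD, n = 6) to 7.44% ± 2.3 under ATRA (n = 5). Its log2 fold change under ATRA was 0.39 ± 0.27 (SE, adjusted p = 0.379 in edgeR). The 3 genes for the ring subunit c of complex V, which encode the same mature protein, held 10.5% (Atp5g1), 32.3% (Atp5g2) and 57.2% (Atp5g3) of their sum.

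**Figure D4:**
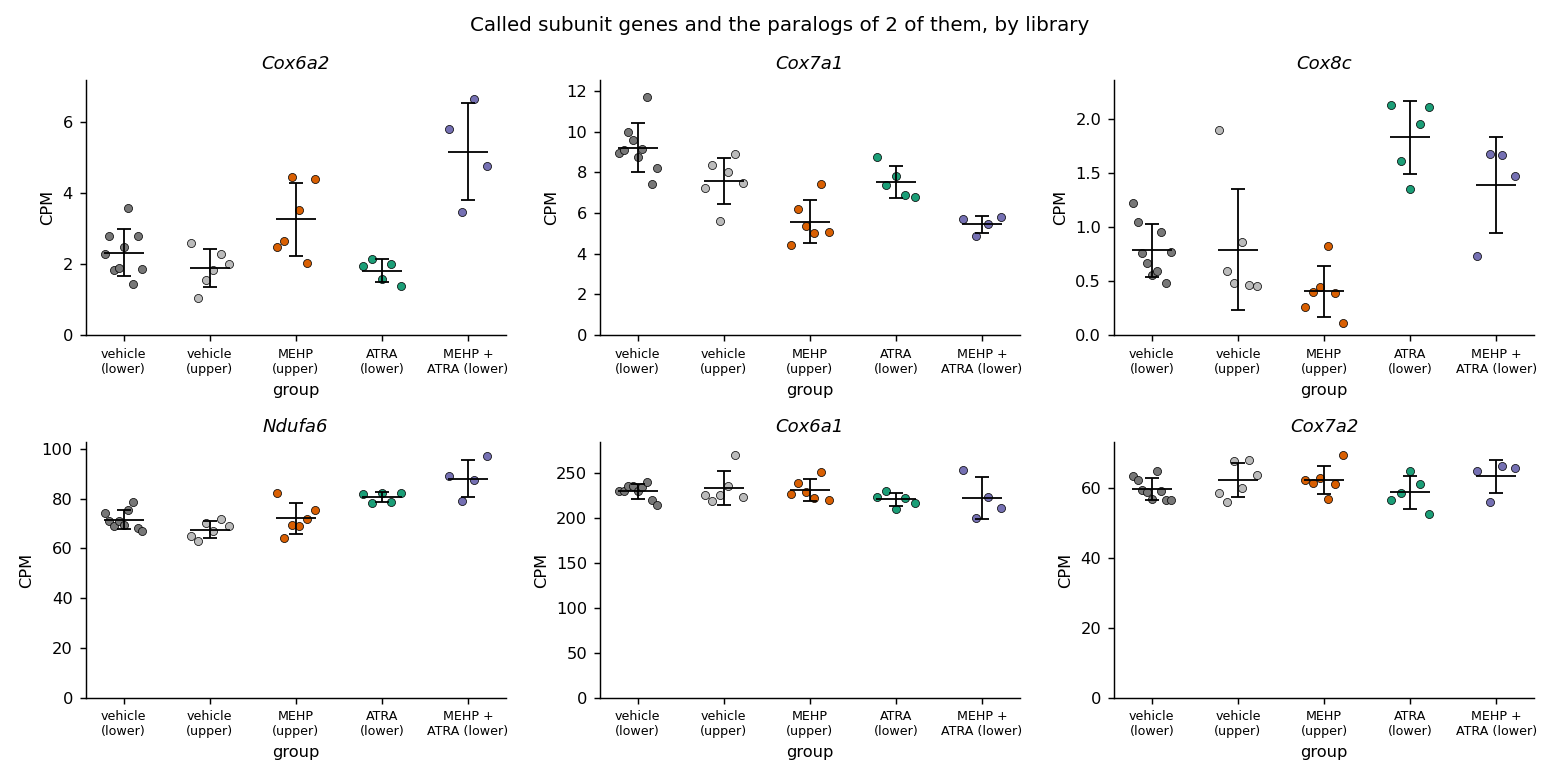
CPM of Cox6a2, Cox7a1, Cox8c and Ndufa6, each called in a comparison, and of the common paralogs Cox6a1 and Cox7a2 in each library, by group, with mean and SD bars. The axes start at 0 and differ in scale. Cox7a1 with MEHP + ATRA (4.84 to 5.78 CPM) lies below all 9 lower-range vehicle libraries (7.42 to 11.7 CPM), while Cox6a1 and Cox7a2 overlap in every group.

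Marker genes of some cell types changed in the same groups, while those of others did not. The 8 markers of peritubular and smooth muscle cells summed to 917 to 1121 CPM in lower-range vehicle, 770 to 851 with ATRA and 724 to 837 with MEHP + ATRA, and to 803 to 977 with MEHP against 893 to 1185 in its vehicle. Of these 8 genes, 5 fell with MEHP + ATRA, 4 with ATRA and 1 with MEHP, beside 14.7%, 9.03% and 1.84% of all genes that fell. None of the marker genes was at 0 in every library of a group. The 12 germ cell markers summed to 753 to 1273 CPM in lower-range vehicle, 855 to 1107 with ATRA and 709 to 1015 with MEHP + ATRA, and to 509 to 888 with MEHP against 633 to 1011 in its vehicle. Of these, 1 rose and 1 fell with ATRA, where Cox8c rose (16.7% called, beside 18.1% of all genes). With MEHP + ATRA 1 rose and 5 fell, beside 14.3% up and 14.7% down of all genes. Endothelial markers summed to 192 to 346 CPM with MEHP against 180 to 299 in its vehicle, and to 241 to 293 with MEHP + ATRA against 184 to 292. Of these 8 genes 4 rose with MEHP (2.88% of all genes), and 1 rose and 1 fell with MEHP + ATRA (29% of all genes called). Interstitial progenitor markers summed to 5254 to 5727 CPM in lower-range vehicle, 3949 to 4575 with ATRA and 3794 to 4284 with MEHP + ATRA. Of these 8 genes, 1 rose and 4 fell with each, beside 9.03% and 14.7% of all genes that fell. With MEHP the interstitial sum was 4736 to 5531 CPM against 5126 to 6328 in its vehicle. Sertoli cell markers summed to 2180 to 3234 CPM in lower-range vehicle, 2585 to 2964 with ATRA and 2484 to 3296 with MEHP + ATRA. With MEHP the sum was 2517 to 3395 CPM against 2625 to 4150 in its vehicle. The sums overlapped in each comparison. Of these 12 genes 8 rose and 2 fell with ATRA and with MEHP + ATRA (9.06% and 14.3% of all genes rose). With MEHP 4 rose and 1 fell (2.88% of all genes rose). Fetal Leydig cell markers had 1 of 8 up and 1 down with ATRA and with MEHP + ATRA, where 18.1% and 29% of all genes were called. No erythroid or macrophage marker was called in these comparisons. Of 7 mesonephros markers 2 rose with ATRA (9.06% of all genes), and 2 rose and 1 fell with MEHP + ATRA (29% of all genes called). The part of these cell types in the isoform results was not tested, and in whole testes fewer cells of a type and less RNA per cell cannot be told apart.

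Ndufa6, an accessory subunit of complex I with a LYR motif (chr15:82350139-82354291, minus strand), rose with ATRA and with MEHP + ATRA. It had 81.9, 78.4, 82.4, 78.7 and 82.1 CPM with ATRA, 89, 78.9, 87.3 and 96.9 CPM with MEHP + ATRA, and 66.8 to 78.7 CPM in the 9 vehicle libraries (median 71). All 4 co-exposed libraries lay above every vehicle library, by little in the lowest, while the ATRA and vehicle groups overlapped. The log2 fold change was 0.17 ± 0.05 (1.13-fold) with ATRA, adjusted p = 0.0146, and 0.30 ± 0.05 (1.23-fold) with MEHP + ATRA, adjusted p = 6.46e-05, in edgeR. The second held in every alternative, and the first was lost without a filter on low counts (adjusted p = 0.0508). With MEHP the log2 fold change was 0.09 ± 0.05 (adjusted p = 0.453).

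The other 4 members that rose with MEHP + ATRA changed by 1.11- to 1.16-fold. Ndufs5 and Ndufv3, accessory subunits of complex I, had 45.6, 40.9, 44.3 and 46.2 CPM against 37.5 to 42.1 CPM in vehicle, and 84.1, 74.6, 85 and 79.7 CPM against 66.8 to 82.2 CPM. Uqcrc2, a core protein of complex III, had 121, 105, 119 and 123 CPM against 94.1 to 112 CPM, and Atp5f1, the peripheral stalk subunit b of complex V, 166, 143, 172 and 176 CPM against 132 to 150 CPM. In each gene the library of replicate 2 lay within the vehicle range, and for Ndufv3 that of replicate 4 did too. Log2 fold changes were 0.16 ± 0.05 (adjusted p = 0.0142), 0.16 ± 0.05 (0.0247), 0.20 ± 0.07 (0.0272) and 0.21 ± 0.08 (0.0341) in edgeR. These calls depended on single libraries. Without MEHP + ATRA replicate 1, 3 or 4 only 4 members were called in all, and without vehicle replicate 6, 11 were. Vehicle replicate 6 is of the upper range and not among the libraries compared here, but it shares the scaling and the estimate of the spread.

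The adjusted p of Ndufs5 was 0.0726 without MEHP + ATRA replicate 4 and 0.05 without replicate 1. That of Ndufv3 was 0.0795 without replicate 1 and 0.0948 without replicate 3, and that of Uqcrc2 0.0787, 0.0736 and 0.107 without replicates 1, 3 and 4. For Atp5f1 it was 0.0704, 0.111 and 0.145 without those 3, 0.0513 without vehicle replicate 5 and 0.0556 without vehicle replicate 15, by edgeR in each case. Uqcrc2 also missed the threshold with no range term (0.117). Reads of Uqcrc2 overlap Pdzd9 on the opposite strand in 19.7% of exonic bases. Ndufs5 shared 21.7% of its 50-base stretches with BC002163, Atp5f1 14.3% with Wdr77 and other genes, and Ndufv3 0.701% with other genes.

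Promoter letters are shown for Ndufa6, called in both ATRA comparisons with vehicle, and for Cox7a1 beside its common paralog Cox7a2, which was not called. The windows run from 250 bases before to 50 after the start and come from RefSeq on GRCm38.p6. Ndufa6 lies in chr15:82354242-82354541 (minus strand), Cox7a1 in chr7:30183921-30184220 (plus strand) and Cox7a2 in chr9:79759804-79760103 (minus strand). Capitals in Ndufa6 mark a match to the core of the motif of NRF1, a known regulator of respiratory chain genes.
Ndufa6: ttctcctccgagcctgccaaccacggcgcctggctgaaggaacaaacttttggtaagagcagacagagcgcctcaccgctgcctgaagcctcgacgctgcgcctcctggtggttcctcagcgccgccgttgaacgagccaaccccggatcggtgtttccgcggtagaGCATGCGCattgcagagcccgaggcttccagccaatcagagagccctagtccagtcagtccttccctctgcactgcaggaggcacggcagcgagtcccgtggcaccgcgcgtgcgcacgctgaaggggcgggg
Cox7a1: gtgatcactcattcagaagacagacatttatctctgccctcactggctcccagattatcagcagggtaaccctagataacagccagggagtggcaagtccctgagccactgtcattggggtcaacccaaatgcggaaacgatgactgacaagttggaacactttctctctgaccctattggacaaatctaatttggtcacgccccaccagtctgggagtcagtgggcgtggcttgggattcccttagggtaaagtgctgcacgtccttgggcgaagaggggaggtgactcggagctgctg
Cox7a2: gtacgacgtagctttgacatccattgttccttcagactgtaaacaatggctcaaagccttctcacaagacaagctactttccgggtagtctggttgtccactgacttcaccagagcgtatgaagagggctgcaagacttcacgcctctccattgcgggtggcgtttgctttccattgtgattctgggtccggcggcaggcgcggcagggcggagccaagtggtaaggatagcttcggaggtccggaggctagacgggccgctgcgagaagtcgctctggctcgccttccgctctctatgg
The Ndufa6 window is 65% G and C, against 53% in Cox7a1 and 56.7% in Cox7a2. Neither Cox7a window holds any of the 4 motifs searched.

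Over the members, 67 of the 85 nuclear genes had a promoter window and 18 did not, Cox6a2, Cox8c, Uqcrc2 and Atp5f1 among the latter. Both strands were searched. The NRF1 core GCGCATGC was in a window of 10 of the 67 genes (14.9%), beside 3.94% of 17492 protein-coding genes and 2.71% of all 32851 windows. Cox6a1 was among the holders. The core of YY1, AAGATGGC, was in 9 genes (13.4%), beside 3.57% and 2.75%. The estrogen-related receptor (ERR) motif TCAAGGTCA was in 2, Atp5g3 and Sdhd (2.99%), beside 0.377% and 0.423%, and the ETS core CCGGAAGT in 5 (7.46%), beside 5.69% and 3.89%. No overlap between motifs was scored, 42 of the 67 genes held none of the 4, and a match describes letters only.

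Beyond the subunits, regulators and electron carriers were looked at from lists of mitochondrial genes. Of 14 regulators of mitochondrial biogenesis, 4 rose and 1 fell with MEHP + ATRA, 1 rose with ATRA and 1 rose with MEHP. The called shares were 35.7%, 7.14% and 7.14%, beside 29%, 18.1% and 4.72% of all genes. Ppargc1a, the coactivator known to raise respiratory chain expression, had 11.1, 8.8, 9.46 and 10.4 CPM with MEHP + ATRA against 3.64 to 7.23 CPM in vehicle and 4.95 to 7.07 CPM with ATRA, with no overlap with either. Its log2 fold change was 0.89 ± 0.15 against vehicle (adjusted p = 2.8e-05) and 0.74 ± 0.17 against ATRA (adjusted p = 0.0121, and 0.0527 without MEHP + ATRA replicate 1) in edgeR. With MEHP it was 0.53 ± 0.15 (adjusted p = 0.038), at 6.41 to 11.5 CPM against 4.51 to 7.86 CPM, a call that ended in the upper-range libraries alone (adjusted p = 0.121). It also ended without MEHP replicate 1, 3, 4 or 6 or vehicle replicate 3, 4, 10 or 11, with an adjusted p of up to 0.148 in edgeR, with no filter on low counts (0.0534) and in limma-voom (0.101). With ATRA it was 0.15 ± 0.15 (adjusted p = 0.592). The interaction for Ppargc1a was 0.21 ± 0.23 (adjusted p = 1).

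Among the other regulators with MEHP + ATRA, Esrrg, an orphan receptor of the ERR family, rose by 0.93 ± 0.21 on the log2 scale (adjusted p = 0.000932) from a mean of 0.812 CPM in vehicle to 1.54 CPM. Sirt3, the mitochondrial deacetylase, rose by 0.28 ± 0.06 (adjusted p = 0.00111). With ATRA alone Sirt3 rose by 0.20 ± 0.06 (adjusted p = 0.019 in edgeR), a call lost without ATRA replicate 1 (0.0698). Esrrb, at -0.72 ± 0.22 (adjusted p = 0.0139), and Gabpa, an ETS factor at 0.15 ± 0.05 (adjusted p = 0.0235), were called with MEHP + ATRA in edgeR. Neither was called with no range term (0.0838 and 0.126) or without MEHP + ATRA replicate 1 (0.0649 and 0.0722). Gabpa overlaps Atp5j on the opposite strand. Nrf1, Esrra and Ppargc1b were not called: their log2 fold changes with MEHP + ATRA were -0.01 ± 0.05, -0.03 ± 0.08 and -0.07 ± 0.17. Tfam, which packs and transcribes mtDNA, had 0.02 ± 0.07 (adjusted p = 0.877).

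Electron carriers and coenzyme Q synthesis held 15 genes, of which 3 rose and 1 fell with MEHP + ATRA, 1 rose with ATRA, and 1 rose and 1 fell with MEHP (26.7%, 6.67% and 13.3% called, beside 29%, 18.1% and 4.72% of all genes). Cycs, cytochrome c itself, rose from 54.4 to 71.6 CPM in lower-range vehicle to 78.6, 82.9, 81.1, 83.2 and 82 CPM with ATRA and 99.4, 81.4, 91.8 and 91.5 CPM with MEHP + ATRA. Neither treated group overlapped with vehicle. Log2 fold changes of Cycs were 0.32 ± 0.07 (adjusted p = 0.000518) and 0.48 ± 0.07 (adjusted p = 2.52e-06), and both calls held in every alternative. With MEHP, Cycs was at 0.25 ± 0.07 (adjusted p = 0.0304), a call lost in the upper-range libraries alone (0.105). It was lost too without MEHP replicate 1, 2, 3 or 6 or vehicle replicate 3, 4, 10, 11 or 14, with an adjusted p of up to 0.0915 in edgeR. Etfdh, which passes electrons from fatty acid oxidation to ubiquinone, rose by 0.27 ± 0.07 (adjusted p = 0.0024) with MEHP + ATRA, and Coq8a, a kinase-like protein needed for coenzyme Q, fell by 0.42 on the log2 scale (SE 0.10, adjusted p = 0.00252). With MEHP alone Coq8a was at -0.36 ± 0.10 (adjusted p = 0.0264 in edgeR). That call was lost in the upper-range libraries alone (0.167) and in 6 fits that leave out 1 library.

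**Figure D5:**
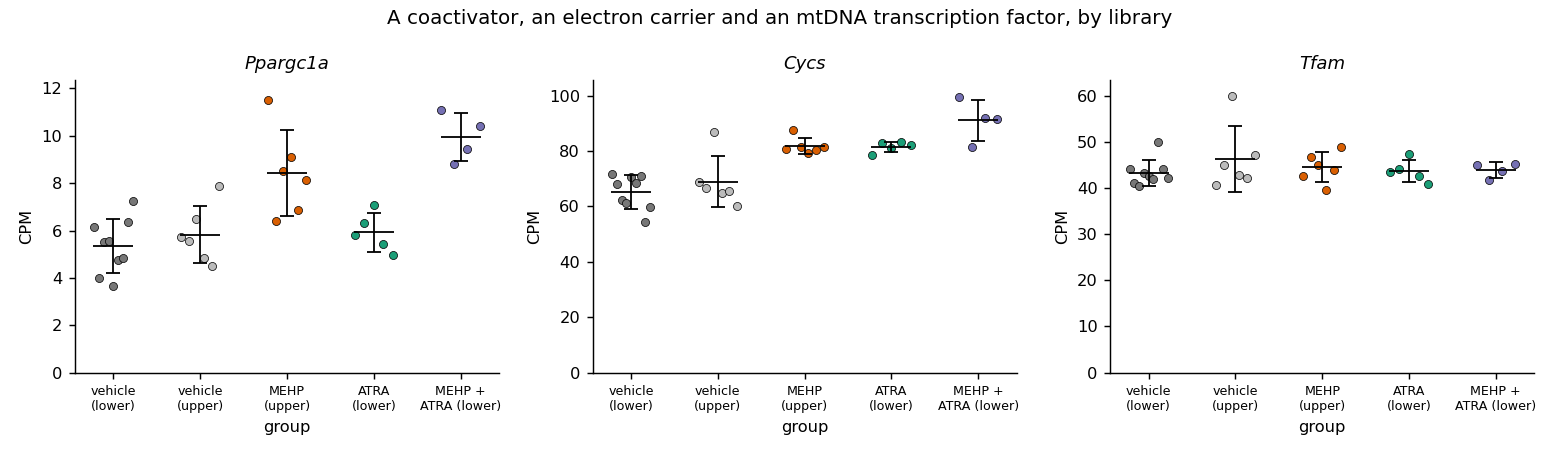
CPM of Ppargc1a, Cycs and Tfam in each library, by group, with mean and SD bars. Ppargc1a and Cycs are higher with MEHP + ATRA than in every lower-range vehicle library (8.8 to 11.1 against 3.64 to 7.23 CPM, and 81.4 to 99.4 against 54.4 to 71.6 CPM), while Tfam overlaps in all groups.

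Assembly factors and the machinery of mtDNA expression held few called genes. With MEHP + ATRA, where 14.3% of all genes rose and 14.7% fell, 1 rose and 1 fell of 15 for complex I, 0 of 4 changed for complex II, 0 of 6 for complex III, 1 rose of 18 tested for complex IV and 1 fell of 5 for complex V. The last 2 calls were weak. Cox17, a copper carrier for complex IV, at 0.17 (adjusted p = 0.0319), was lost in 2 alternatives and without MEHP + ATRA replicate 3 (0.107) or 4 (0.153) or vehicle replicate 15 (0.0516) in edgeR. Fmc1, a complex V assembly factor at -0.23 (adjusted p = 0.0423), was lost in 3 alternatives and in 17 of the 30 edgeR fits that leave out 1 library, with an adjusted p of up to 0.272 without MEHP + ATRA replicate 2. Ndufaf4 rose by 0.31 ± 0.09 (adjusted p = 0.0106) and Acad9 fell by 0.21 on the log2 scale (SE 0.05, adjusted p = 0.00198), both factors of complex I assembly. With ATRA alone edgeR called both as well, at 0.26 ± 0.09 (adjusted p = 0.032) and -0.17 ± 0.05 (adjusted p = 0.00795). The ATRA call of Ndufaf4 was lost with no filter on low counts (0.0702) and in 7 fits that leave out 1 library. Of 20 genes for mtDNA expression and upkeep 2 rose and 1 fell with MEHP + ATRA. Grsf1, an RNA-binding protein of mitochondrial RNA granules, was at 0.20 ± 0.05 (adjusted p = 0.00422). With ATRA alone Grsf1 was at 0.15 ± 0.05 (adjusted p = 0.0315 in edgeR). That call was lost with no filter on low counts (0.0927) and in 6 fits that leave out 1 library. Mitochondrial ribosomal proteins, which translate the mtDNA messages, had 3 of 78 up and 6 down with MEHP + ATRA, from Mrps25 at 0.36 ± 0.06 (adjusted p = 4.86e-05) to Mrpl23 at -0.64 ± 0.11 (adjusted p = 2.35e-05). With ATRA alone edgeR called Mrps25 at 0.24 ± 0.06 (adjusted p = 0.00489), Mrpl23 at -0.30 ± 0.10 (0.0297) and Mrps23 at -0.14 ± 0.05 (0.0367). The ATRA call of Mrpl23 was lost in 1 alternative and 3 fits without 1 library, and that of Mrps23 in 3 and 6. Of 81 cytosolic ribosomal proteins 1 was called with MEHP + ATRA, Rpl10a at -0.12 (adjusted p = 0.0398 in edgeR). That call was lost in 5 alternatives and in 15 of the 30 fits without 1 library (up to 0.247 without MEHP + ATRA replicate 2).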

How the data were processed

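Poly(A) RNA of 30 cultured fetal testis samples was sequenced, and the authors deposited a table of read counts per gene for each sample. Per the submitters' processing notes, bcl2fastq 2.20, Trimmomatic 0.36, STAR 2.5.2b, featureCounts of Subread 1.5.2 and DESeq2 were used. For the genome build, the strand setting and the treatment of multiply mapped reads, the entry is: not given in the sources used here. Gene coordinates are printed as the authors deposited them, and 79 of the 98 subunit genes have the coordinates of GENCODE M21 on GRCm38. Gene symbols were matched for 99.3% of gene identifiers.

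Counts as deposited were tested in R 4.3.3 with edgeR 4.0.16: TMM scaling (factors 0.975 to 1.02), the filterByExpr filter with a minimum count of 10 (19323 genes), a design of treatment plus range of the second title number over all 30 libraries (25 residual degrees of freedom, common biological coefficient of variation 12.7%), the quasi-likelihood F test, and Benjamini-Hochberg adjustment over all genes with a threshold of 0.05. SE is the absolute log2 fold change over the square root of F, and intervals are at 95%. CPM are counts scaled to a common TMM-adjusted library total, and a pseudocount of 0.5 was used for log2 CPM. Alternatives were other scalings, no low-count filter, DESeq2 1.42.0, limma-voom (limma 3.58.1) with sample weights, no range term, libraries of 1 range alone, a block on the first title number, and each library left out. The scripts were tested on simulated data. Total counts of 17551454 to 29306917 per library set the precision, which is poor for members under 100 mean counts. No label says that libraries of a group come from separate animals, so p-values measure the spread between these libraries, which may be technical. Replicates carry numbers in accession order within a treatment.

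The members and lists were chosen with earlier results of these data known. Genes named are, per comparison, up to 8 called members with the largest rise and up to 8 with the largest fall, all mtDNA members, isoform families, the Sdh genes, up to 4 called genes per other list by smallest p, and Ppargc1a, Ppargc1b, Nrf1, Gabpa, Esrra and Tfam. Mitochondrial ribosomal RNA genes were not analysed here.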

Additional observations from a re-analysis of the deposited data

Results flagged for a closer look

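Within each group of 4 to 10 libraries, sums of members and the levels of called members were searched for 1 library far from the rest by Dixon's criterion, which chance meets in about 1 of 20 groups. Of 115 groups examined, 11 met it. Vehicle replicate 6, of the upper range, was high in the sum of all members (24321 CPM against 19472 to 21132 CPM in the others), of mtDNA members (14248 CPM against 10264 to 11371 CPM), of mtDNA members with at least 100 counts (14238 CPM against 10255 to 11361 CPM) and of complex III, which includes mt-Cytb (3286 CPM against 2538 to 2752 CPM).

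ATRA replicate 5 was low in all members (18987 CPM against 21050 to 21571 CPM), in mtDNA members (9965 CPM against 11676 to 12275 CPM) and in those with at least 100 counts (9958 CPM against 11667 to 12267 CPM). Nuclear members of complex III were low in MEHP replicate 4 (721 CPM against 768 to 786 CPM), and those of complex IV in MEHP + ATRA replicate 2 (1559 CPM against 1730 to 1758 CPM). Cox8c was high in vehicle replicate 3 of the upper range (1.9 CPM against 0.452 to 0.857 CPM), and Ndufv3 in vehicle replicate 1 of the lower range (82.2 CPM against 66.8 to 73.7 CPM).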

How the results depend on the processing

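Called members with MEHP numbered 2, and 1 with no filter on low counts, 1 with limma-voom, 4 with no range term and 0 in libraries of the same range. With ATRA the count of 2 became 5 with library totals alone, 1 with no filter, 4 with DESeq2, 10 with limma-voom, 4 with no range term and 5 in libraries of the same range. With MEHP + ATRA the count of 7 became 19 with limma-voom, and against ATRA the count of 1 became 2 with library totals alone, DESeq2, limma-voom or libraries of the same range. With each library left out in turn, the counts ran from 0 to 2 with MEHP, 2 to 6 with ATRA, 4 to 11 with MEHP + ATRA and 1 to 2 for MEHP + ATRA against ATRA. Beyond the fits with fewer samples, the cause was not tested. These counts are given without the share of all genes called in the same fit. They do not show a change particular to the members. A replicate block on the first title number within range gave 4 called members with ATRA and 2 for MEHP + ATRA against ATRA. The labels give these numbers no meaning. Same-numbered libraries of different groups had correlations of deviations from the group means from -0.108 to 0.746 (29 pairs, median 0.101, 15 over 0.1), beside a median of -0.0126 and 18 of 108 over 0.1 for other numbers. Same-numbered pairs were thus more often over 0.1 than others, though not in every case. The main fit does not use these numbers as pairing, and a shared source was not tested. The interaction and the vehicle ranges called 0 members in each fit run. The median log2 fold change of mtDNA members ran from 0.1 to 0.25 with MEHP + ATRA over the left-out libraries, and that of nuclear members from -0.01 to 0.05. Of 15321 values of single genes under an alternative, 15061 kept direction and side of the threshold, 177 lost the call, 83 gained one and 0 reversed a call. Most of these values belong to genes and comparisons without a call in the main fit. The total kept therefore says little about how firm the calls are. Low counts limit Cox8c, Cox6a2 and 6 mtDNA members. Fits without a range term, within 1 range or with the block were not applicable to the vehicle ranges, and a fit within 1 range was not to the interaction.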

Other observations

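Ndufa4l2 and Cox4i2, forms of complex IV subunits known from low-oxygen settings, varied more between libraries than between treatments. Ndufa4l2 ranged from 0.771 to 23.7 TPM over the 30 libraries, and its log2 fold changes had SEs of 0.58 to 0.65. The vehicle library of replicate 12 had 6.96 CPM of Ndufa4l2 and 3.8 CPM of Cox4i2, and MEHP replicate 4 had 5.77 and 4.4 CPM. Low libraries were vehicle replicate 9, at 0.65 and 0.812 CPM, and MEHP replicate 6, at 0.277 and 0.665 CPM. These libraries were picked after their values were seen, and neither gene was called in a comparison.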
